A study of Homo sapiens with 18 samples.

Results

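SR proteins and heterogeneous nuclear ribonucleoproteins (hnRNPs) are the RNA-binding proteins that guide the spliceosome to exons. The 35 genes described here were chosen by symbol alone, from the SRSF, TRA2, HNRNP and PTBP names, out of the 20705 genes of the count table. They comprised 8 classical SR proteins, 3 other SRSF genes (SRSF8, SRSF10 and SRSF12), 2 TRA2 genes, 7 hnRNP A/B and D genes, HNRNPC, 4 hnRNP F/H genes, HNRNPK, 2 hnRNP L genes, HNRNPM and HNRNPR, 2 hnRNP U genes and 3 PTB genes. SRSF2, HNRNPA1 and HNRNPUL2 were not analysed here. Poly-A RNA from 2 melanoma cell lines was sequenced in 18 libraries, 2 for each of 9 groups. CHL1 carries wild-type BRAF and NRAS and mutant p53 and was grown in DMEM. A375 carries mutant BRAF and wild-type p53 and was grown in RPMI-1640. In CHL1 the groups were a DMSO control at 72 hours, 1 µM palbociclib (a CDK4/6 inhibitor, CDK4/6i) for 72 hours or for 6 days, and 500 nM GSK3326595 (a PRMT5 inhibitor, PRMT5i) for 72 hours. A375 had the same groups and, in addition, a DMSO control at 6 days. CHL1 cells treated for 6 days were therefore compared with a control of 72 hours, so that treatment and time in culture cannot be told apart there. All cells were the parental lines, and each line is 1 model of melanoma. The labels do not say that the libraries of a group came from separate cultures, so the p-values measure the spread between these libraries, which may be technical.

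SR proteins bind exonic enhancers through RNA recognition motifs and recruit splicing factors through a domain rich in arginine and serine, which SRPK and CLK kinases phosphorylate. Most hnRNPs bind exonic or intronic silencers, loop out RNA or compete with SR proteins, and their glycine- and arginine-rich regions are substrates of arginine methyltransferases, PRMT5 among them. Many genes of both families limit their own expression through poison exons, which send the transcript to nonsense-mediated decay. Counts per gene, as used here, add up all spliced forms, so they show the level of a gene's mRNA and nothing of its isoforms.

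The question for these genes was whether either inhibitor changed the mRNA of the splicing regulators, in a study that compared splicing under both drugs. Libraries held between 16213475 and 37424081 counts. Of 8 melanocyte lineage markers 5 had an entry: MITF, the lineage's defining transcription factor, was at 63.8 to 144 CPM (counts scaled to TMM library size) in CHL1 and 81.3 to 211 in A375, whereas TYR and PMEL stayed at or below 5.02 CPM in every library, and DCT was at 36.3 CPM or more in CHL1 but at most 1.79 CPM in A375. Of 8 markers of other cells 6 had an entry, and their summed level ranged from 18.01 to 27.7 CPM over the CHL1 groups, from 71.4 to 101 CPM in the A375 libraries of 72 hours and from 18.2 to 31.4 CPM in those of 6 days. In 4 libraries counts followed the GC content of the transcript: the median log2 deviation from the line's median library was lower in the GC-richest 10% of genes than in the GC-poorest 10%, with a difference of -2.49 and -1.98 in CHL1 under PRMT5i and -2.27 and -1.12 in the A375 control of 6 days, against -0.17 to 0.50 in the other 14 libraries. Comparisons that use these libraries are given both as counted and after a correction that removes each library's trend with GC content. The members are AT-rich for expressed genes, with a median GC content of 40.8% (range 34.7 to 61.7%) in the longest transcript, against 47.5% over 13675 expressed genes. The names of 12 libraries (CHL1 and A375 at 6 days) belong to a different set from those of the 6 A375 libraries at 72 hours, and the names of the A375 PRMT5i libraries carry the letters CTX, which the labels do not explain.

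Under CDK4/6i the splicing regulators took a smaller share of the transcriptome in both lines. In A375 they held 0.662% and 0.727% of all counts in the 72-hour controls, and 0.484% and 0.505% after 72 hours of CDK4/6i. At 6 days the shares were 0.807% and 0.779% in the A375 controls and 0.535% and 0.485% in treated cells. In CHL1 the controls held 0.865% and 0.787%, CDK4/6i at 72 hours 0.702% and 0.693%, and CDK4/6i at 6 days 0.718% and 0.620%. None of these treated libraries overlapped its controls. PRMT5i divided the lines: the share was higher in CHL1, at 1.11% and 1.02%, and lay within the range of the controls or just below it in A375, at 0.654% and 0.679%. The CHL1 PRMT5i libraries and the A375 controls of 6 days, which have the highest shares of their lines, are the 4 with the GC trend. In bulk RNA fewer cells of a type and less RNA per cell cannot be told apart, and since counts are relative, neither can a lower share and more RNA of other genes.

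**Figure D1:**
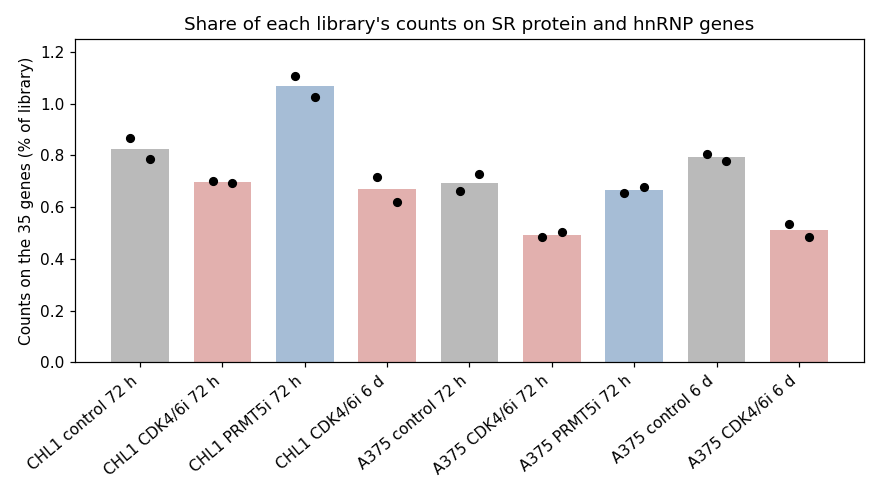
Share of each library's counts that fell on the 35 SR protein and hnRNP genes, in percent. Bars are means of 2 libraries, points are the libraries, and colours mark control (grey), CDK4/6i (red) and PRMT5i (blue); all CDK4/6i libraries lie below the controls of their line and time point, with CHL1 at 6 days set against its 72-hour control.

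Levels between genes were compared as CPM per kilobase of the longest annotated transcript, which need not be the form expressed. In the CHL1 control the most abundant members were HNRNPC, which packages nascent transcripts, at 172 CPM per kilobase, HNRNPM at 149, HNRNPA2B1 at 129, HNRNPK at 116 and HNRNPF at 103. In the A375 control of 72 hours HNRNPC again ranked first, at 134 CPM per kilobase, before HNRNPF at 108, HNRNPM at 107, HNRNPK at 102 and PTBP1 at 101. At the low end of both controls stood HNRNPA1L2, a near-copy of HNRNPA1 whose reads are uncertain, at 2.95 and 2.99 CPM per kilobase, and SRSF12, at 0.494 and 0.0814. PTBP1, the ubiquitous polypyrimidine tract binding protein that represses exons, stood above its paralogue PTBP2, the form known from neurons, in both 72-hour controls: 78.1 against 15.4 CPM per kilobase in CHL1 and 101 against 8.54 in A375. Part of this gap comes from the lengths used, 4661 bases for PTBP1 and 12014 for PTBP2. In CPM, PTBP1 was at 390.1 and 338 in the CHL1 controls, and PTBP2 at 185 in both. In A375 PTBP1 was at 428 and 513 CPM, and PTBP2 at 108 and 96.9 CPM.

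The controls of the lines differed in 21 of 35 members at 72 hours, 18 higher and 3 lower in CHL1, where 58.9% of all genes tested differed, 29.3% higher and 29.6% lower (edgeR's quasi-likelihood test, Benjamini-Hochberg adjusted p below 0.05, as for every call here). HNRNPA3 was at 368 and 325 CPM in CHL1 and 103 and 120.3 CPM in A375, a log2 difference of 1.63 ± 0.20 (SE; edgeR adjusted p = 9.67e-07). PTBP2 was at 185 CPM in both CHL1 controls and at 108 and 96.9 CPM in A375 (0.85 ± 0.22, edgeR adjusted p = 0.0028). The 3 members lower in CHL1 were SRSF8, SRSF1 and HNRNPUL1, with log2 differences of -0.64, -0.51 and -0.49. Cell line, medium and library set differ together here and cannot be told apart. Without the first CHL1 control 12 members were called, where 10352 of the 20705 genes were, and without the first A375 control 13, where 49.6% of all genes were.

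CDK4/6i lowered 9 of 35 members in A375 at 72 hours and raised none, where 13.3% of all genes were called and 7.11% were called lower. The members' median log2 fold change was -0.48, against 0.0018 over all genes, and 31 of 35 values were negative. The GC trend was 0.41 and 0.50 in the treated libraries, against 0.03 and 0.02 in the controls. After GC correction the median was -0.29 and 12 members were lower, where 14.8% of 13675 genes were. Of the 9, 7 kept their call, while HNRNPA2B1 and HNRNPR did not. Both treated libraries lay below both controls for 27 members, against 29.2% of all genes. PTBP2 showed the largest fall, from 108 and 96.9 CPM in the controls to 42.1 and 42.0 CPM in treated cells, on the log2 scale -1.35 ± 0.22 (SE, n = 2 libraries per group; edgeR adjusted p = 0.000738). In the 4 fits that left out 1 library its log2 fold change was -1.40 to -1.26. Those fits keep 1 library in a group and called far fewer genes over the whole table. Among the 9 members only the call of PTBP2 held in each of them.

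The other falls in A375 at 72 hours spread over both families. SRSF10, an SR protein that represses splicing when dephosphorylated, went from 63.0 and 56.7 CPM to 36.2 and 31.4 CPM (-0.88 ± 0.20, edgeR adjusted p = 0.00858). HNRNPD (AUF1), which binds AU-rich elements and destabilises mRNA, went from 136 and 161 CPM to 84.9 and 86.6 CPM (-0.85 ± 0.18, edgeR adjusted p = 0.00624). TRA2B, an SR-like activator of GAA-rich exons, went from 193 and 218 CPM to 127 and 121 CPM (-0.78 ± 0.20, edgeR adjusted p = 0.0184). The controls and treated libraries of these genes did not overlap. PTBP3, the third PTB paralogue, went from 145 and 167 CPM to 97.5 and 95.4 CPM (-0.75 ± 0.18, edgeR adjusted p = 0.0127). SRSF4, HNRNPA2B1, HNRNPR and HNRNPDL made up the rest, with log2 fold changes of -0.73, -0.69, -0.68 and -0.64. Of the 8 classical SR proteins 1 passed the test (SRSF4), and their median was -0.36.

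Promoters are shown for 4 members that fell together in A375, and E2F words are marked because CDK4/6 is known to act through RB on E2F factors. Each is the 300 bases of the RefSeq window (GRCh38.p14), from 250 before to 50 after the annotated start, on the gene's strand. Capitals mark an E2F word (TTTCCCGC, TTTGGCGC or TTTCGCGC, searched on both strands). The windows are TRA2B at chr3:185937965-185938264 (minus strand), SRSF10 at chr1:23980278-23980577 (minus), PTBP2 at chr1:96722388-96722687 (plus) and HNRNPD at chr4:82373942-82374241 (minus).
TRA2B: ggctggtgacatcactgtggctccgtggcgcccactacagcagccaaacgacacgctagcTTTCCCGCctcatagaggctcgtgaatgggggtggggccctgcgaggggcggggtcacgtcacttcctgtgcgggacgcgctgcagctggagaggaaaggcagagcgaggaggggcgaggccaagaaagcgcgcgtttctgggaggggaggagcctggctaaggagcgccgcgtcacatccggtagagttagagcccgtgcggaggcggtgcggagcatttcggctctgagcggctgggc
SRSF10: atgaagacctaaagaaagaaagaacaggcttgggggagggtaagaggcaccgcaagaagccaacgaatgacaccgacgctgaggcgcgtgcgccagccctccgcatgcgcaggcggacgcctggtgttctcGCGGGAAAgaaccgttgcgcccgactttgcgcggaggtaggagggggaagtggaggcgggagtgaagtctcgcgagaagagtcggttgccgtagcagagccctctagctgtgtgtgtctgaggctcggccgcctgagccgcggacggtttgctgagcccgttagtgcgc
PTBP2: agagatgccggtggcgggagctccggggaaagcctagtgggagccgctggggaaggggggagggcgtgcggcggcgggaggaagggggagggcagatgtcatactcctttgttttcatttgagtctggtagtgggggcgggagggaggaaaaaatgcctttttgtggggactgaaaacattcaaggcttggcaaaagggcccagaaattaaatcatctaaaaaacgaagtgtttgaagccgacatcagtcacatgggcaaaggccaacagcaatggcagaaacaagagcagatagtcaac
HNRNPD: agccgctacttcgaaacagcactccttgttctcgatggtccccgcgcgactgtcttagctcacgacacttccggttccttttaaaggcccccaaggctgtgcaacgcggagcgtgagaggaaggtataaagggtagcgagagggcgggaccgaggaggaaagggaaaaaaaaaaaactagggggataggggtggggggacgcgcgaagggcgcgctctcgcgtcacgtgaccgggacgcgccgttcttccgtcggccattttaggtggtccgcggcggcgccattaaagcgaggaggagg

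The windows of TRA2B and SRSF10 each held 1 E2F word, in the reverse orientation in SRSF10, whereas those of PTBP2 and HNRNPD held none of these letters. Over the 49 windows listed for 34 members, 5 held an E2F word (10.2%), in HNRNPLL, HNRNPUL1, PTBP1, SRSF10 and TRA2B, against 2.74% of 35116 windows of all genes. Of these, SRSF10 and TRA2B were called lower in A375 at 72 hours, and HNRNPLL, HNRNPUL1 and PTBP1 were not. CCAAT, searched on both strands like the words that follow, stood in 22 member windows (44.9%), against 34.61% of all, and the E-box CACGTG in 8 (16.3%), against 7.26%. The cyclic AMP response word TGACGTCA was in no member window, against 1.85% of all. These matches are descriptions of the sequence, with no test of a site.

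After 6 days of CDK4/6i in A375, 19 of 35 members were lower than in the control of 6 days and none higher, where 43.1% of all genes were called and 21.3% were called lower. The median was -0.85 on the log2 scale, against 0.10 over all genes. PTBP2 again had the largest fall, from 395 and 235 CPM to 62.8 and 66.8 CPM, which is 0.206 of the control (log2 fold change -2.28 ± 0.22, edgeR adjusted p = 5.08e-06). PTBP3 went from 349 and 254 CPM to 100.4 and 99.6 CPM (-1.59 ± 0.19, edgeR adjusted p = 2.1e-05). HNRNPH3, which binds G-rich runs, went from 48.8 and 32.8 CPM to 15.5 and 12.9 CPM (-1.52 ± 0.22, edgeR adjusted p = 0.000106). HNRNPA2B1, which binds exonic silencers, went from 1168 and 901 CPM to 408 and 325 CPM (-1.50 ± 0.22, edgeR adjusted p = 0.000119). HNRNPA3 went from 243 and 167 CPM to 81.8 and 71.6 CPM (-1.42 ± 0.20, edgeR adjusted p = 8.01e-05). In these 5 genes both treated libraries were below both controls, and the first control, which has the stronger GC trend, was the higher one.

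By family, 5 of 7 hnRNP A/B and D genes, 3 of 4 hnRNP F/H genes, both TRA2 genes, 2 of 3 PTB genes and 3 of 8 classical SR proteins (SRSF3, SRSF4 and SRSF11) fell in A375 at 6 days as counted. After GC correction, described next, the first 3 of these families had 5, 3 and 2 members lower and the PTB genes 3, whereas no classical SR protein was lower (edgeR) and SRSF4 stood at 0.02. These were not all the same genes: HNRNPH1 (0.05 corrected) was lower only as counted, and HNRNPF and PTBP1 only after correction. As counted, PTBP1 did not pass the test (log2 fold change 0.02), nor did HNRNPL (0.45), HNRNPAB (0.16), SRSF1 (0.20) or HNRNPUL1 (0.15), of which all but SRSF1 have transcripts of 49.8% GC or more. Across the 35 members the change at 6 days ran with GC content (Pearson's r = 0.60), given as a description, since all values share the same 4 libraries. After GC correction 15 members were lower and 1 higher (SRSF5), where 21.8% and 21.0% of 13675 genes were. The 72-hour control, whose libraries lack the trend but belong to another library set and time, gave 18 members lower, where 15.0% of all genes were. Of these, 9 were also among the 19 lower against the 6-day control. HNRNPH3 (-0.24), TRA2A (-0.09), HNRNPH2 (-0.05) and SRSF11 (-0.01), called lower against the 6-day control, did not pass against the 72-hour control. The summed level of the markers of other cells was 80.3 to 85.5 CPM in that control and 22.5 to 25.4 CPM in the treated libraries of 6 days, against 18.2 to 31.4 CPM in the 6-day control, and its part in these values was not tested. The A375 libraries of 72 hours and of 6 days thus stood apart in these markers, and whether both sets hold the same line was not tested, which bears on every value against the 72-hour control.

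The 6 members lower against both controls and after correction were PTBP2, HNRNPA2B1, HNRNPA3, HNRNPD, PTBP3 and TRA2B. For PTBP2 the log2 fold change at 6 days was -1.13 after correction and -0.71 against the 72-hour control, for HNRNPA2B1 -1.12 and -0.62, and for TRA2B -0.70 and -0.58. As counted against the 6-day control the 3 values were -2.28, -1.50 and -1.26. PTBP1, at 0.02 as counted, was at -0.59 ± 0.14 after correction (edgeR adjusted p = 0.007) and at -0.97 against the 72-hour control. SRSF1 was at 0.20 as counted and 0.83 after GC correction, neither past the test, and was called lower against the 72-hour control (-0.99).

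**Figure D2:**
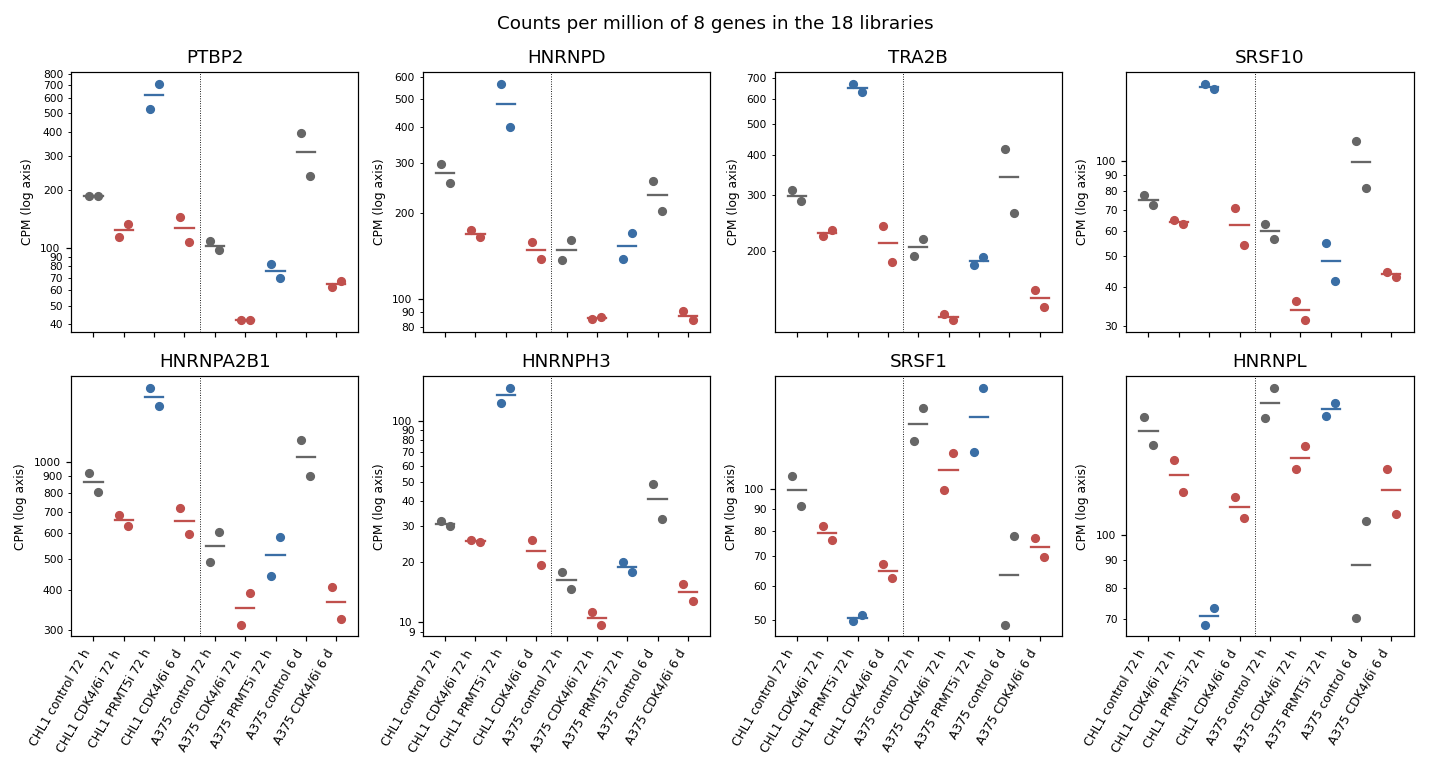
CPM of 8 genes in each of the 18 libraries, on log axes whose ranges differ between panels. Points are libraries, short lines are means of 2, colours mark control (grey), CDK4/6i (red) and PRMT5i (blue), and the dotted line separates CHL1 (left) from A375 (right). PTBP2, HNRNPD, TRA2B and SRSF10 lie below the controls in all A375 CDK4/6i libraries, and SRSF1 and HNRNPL are lowest in the CHL1 group in the 2 PRMT5i libraries.

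The A375 responses at 72 hours and 6 days do not share control libraries. Of the 9 members lower at 72 hours all 9 were also lower at 6 days as counted, and they made up 9 of the 19 lower at 6 days. After GC correction HNRNPD, HNRNPDL, PTBP2, PTBP3 and TRA2B kept their call at both times. HNRNPA2B1 and HNRNPR lost it at 72 hours, and HNRNPR, SRSF10 and SRSF4 at 6 days. The share of all genes lower at both times is not given, so the overlap says nothing particular to the members. The study reported that most genes changed at the earlier time also changed at the later one in each line. The difference between the responses passed for no member (edgeR; 11 at an unadjusted p below 0.05; DESeq2 5, limma voom 0), where 1.08% of all genes were called. Without the second 6-day control library, 17 members were called in that difference, where 33.9% of all genes were, and the 6-day comparison itself gave 29 calls, 24 lower and 5 higher, where 55.5% of all genes were called.

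In CHL1 at 72 hours of CDK4/6i no member passed the test, where 4.98% of all genes did (edgeR; 9 members at an unadjusted p below 0.05; DESeq2 1, limma voom 0). The median log2 fold change was -0.28 and 27 of 35 values were negative. HNRNPD had the lowest p: it was at 296 and 256 CPM in the controls and at 174 and 165 CPM in treated cells, or -0.71 ± 0.19 on the log2 scale (edgeR adjusted p = 0.0513). PTBP2 was at 185 CPM in both controls and at 114 and 133 CPM in treated cells, which did not pass (-0.58, edgeR adjusted p = 0.116). The difference between the lines in the CDK4/6i response passed for no member (edgeR; 3 at an unadjusted p below 0.05; DESeq2 0, limma voom 0), where 0.642% of all genes were called.

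After 6 days in CHL1, 6 members were lower and none higher, where 16.6% of all genes were called and 7.8% were called lower. HNRNPD was at 159 and 138 CPM, against 296 and 256 CPM in the controls (-0.88 ± 0.19, edgeR adjusted p = 0.00889). HNRNPC went from 784 and 763 CPM to 523 and 448 CPM (-0.66 ± 0.16, edgeR adjusted p = 0.0146). HNRNPM, which favours exon skipping through GU-rich motifs, went from 399 and 364 CPM to 248 and 235 CPM (-0.64 ± 0.17, edgeR adjusted p = 0.0212). In each of them both treated libraries were well below both controls. SRSF7, an SR protein that also exports mRNA, went from 156 and 141 CPM to 105 and 85.5 CPM (-0.63 ± 0.17, edgeR adjusted p = 0.0272). SRSF1, the prototype SR protein and a proto-oncogene, went from 107 and 91.2 CPM to 67.3 and 62.5 CPM (-0.60 ± 0.15, edgeR adjusted p = 0.0215). The sixth was SRSF4, from 202 and 196 CPM to 131 and 137 CPM (-0.56, edgeR adjusted p = 0.0221). So 3 of 8 classical SR proteins, 1 of 7 hnRNP A/B and D genes, HNRNPC and HNRNPM fell. No call held with either control library left out, in fits that keep 1 control library and called far fewer genes over the whole table. The fit without the first treated library called more members, though fewer genes over the whole table. The summed markers of other cells were at 26.9 to 27.7 CPM in these treated libraries, against 18.4 to 18.5 CPM in the controls, with 2 of 6 called higher (PTPRC, 1.15, and VWF, 4.68). VWF was near the floor, at 0.763 CPM or less in every CHL1 library. The melanocyte markers summed to 229 to 274 CPM, against 170.4 to 199 CPM. The part of these marker sets in the result was not tested.

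The 6-day and the 72-hour libraries of CHL1 under CDK4/6i differed past the test in no member (edgeR; 0 at an unadjusted p below 0.05; DESeq2 0, limma voom 0), where 0.0145% of all genes were called, with log2 differences from -0.31 to 0.43. HNRNPD and SRSF4 were lower in CHL1 at 6 days and in A375 at both times, which is 2 of the 6 CHL1 members and 2 of the 9 and 19 A375 members. In A375 at 6 days SRSF4 was called as counted (-0.45) but not after GC correction (0.0218, edgeR adjusted p = 0.908), while HNRNPD was called in both fits. After GC correction, 15 members were lower and 2 higher (HNRNPH2 and SRSF8) in CHL1 at 6 days, all 6 above among the lower, where 16.2% of 13675 genes were lower and 16.2% higher. At 72 hours 2 were lower in CHL1 after correction (PTBP1 and PTBP2), where 8.18% of genes were, and 12 in A375, where 14.8% were.

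PTBP1 and PTBP2 stood out in the corrected fits after their values were seen. The corrected log2 fold change of PTBP1 was -0.48 and -0.66 in CHL1 at 72 hours and 6 days, and -0.72 and -0.59 in A375, each past the test (edgeR adjusted p = 0.0215, 0.00278, 0.0041 and 0.007). That of PTBP2 was -0.55 and -0.72 in CHL1 and -1.02 and -1.13 in A375 (edgeR adjusted p = 0.0115, 0.00151, 0.00022 and 8.99e-05). The CHL1 comparisons share their control libraries. Uncorrected, PTBP1 passed in none of the 4, with values of -0.32, -0.47, -0.52 and 0.02, and PTBP2 in the 2 of A375.

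**Figure D3:**
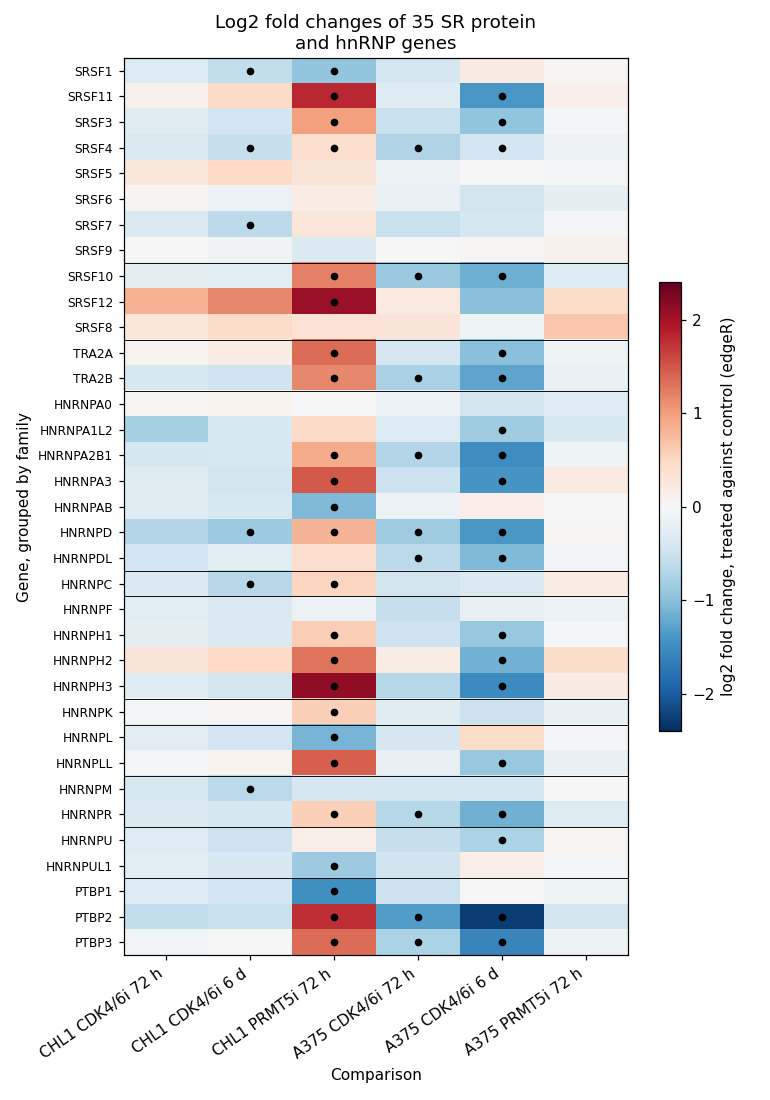
Log2 fold changes of the 35 genes (rows, grouped by family) in the 6 treated-against-control comparisons (columns), as counted. Red is higher and blue lower in treated cells, and a black dot marks an edgeR adjusted p below 0.05; the CDK4/6i columns are mostly blue, the CHL1 PRMT5i column is mostly red with 5 called falls, and the A375 PRMT5i column has no dot.

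As counted, PRMT5i in CHL1 changed more members than any other treatment, and more of all genes, in the libraries with the strongest GC trend. Of 35 members 19 were higher and 5 lower, where 54.0% of all genes were called, 26.4% higher and 27.6% lower. After GC correction 18 members were called, against 17 in CHL1 and 16 in A375 after 6 days of CDK4/6i. Of 13675 genes, 33.6%, 32.4% and 42.8% were called in these corrected fits. Among the expressed genes with a GC value, fitted without correction, 69.7% were called, beside 24 of the 35 members. The members' median log2 fold change was 0.51, against 0.0 over all genes. HNRNPH3 rose most, from 31.7 and 30.1 CPM to 123 and 145 CPM, 4.40-fold (log2 2.14 ± 0.18, edgeR adjusted p = 8.22e-05). SRSF12, a rare SR protein, went from 1.24 and 2.31 CPM to 5.20 and 9.61 CPM (2.08 ± 0.38, edgeR adjusted p = 0.000771). SRSF11 went from 358 and 311 CPM to 1021 and 1294 CPM (1.81 ± 0.24, edgeR adjusted p = 0.000149). PTBP2 went from 185 CPM in both controls to 529 and 713 CPM (1.77 ± 0.20, edgeR adjusted p = 8.93e-05). HNRNPA3 went from 368 and 325 CPM to 1027 and 863 CPM (1.47 ± 0.17, edgeR adjusted p = 1e-04). Both treated libraries lay above both controls for 23 members, against 36.2% of all genes. Of the 5 melanocyte markers measured 2 were higher (MITF, 0.95, and DCT, 0.70) and 1 lower (S100B, -1.24) as counted, with a list median of -0.52; of the 4 with a GC value none passed after correction (edgeR), with MITF at 0.26. The summed markers of other cells were at 18.01 to 21.8 CPM, against 18.4 to 18.5 CPM in the controls, with 1 of 6 higher and 3 lower. Their part was not tested.

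The falls under PRMT5i in CHL1 were in 5 genes. PTBP1 went from 390.1 and 338 CPM to 95.3 and 162 CPM (-1.48 ± 0.22, edgeR adjusted p = 0.000268), opposite to its paralogues PTBP2 and PTBP3 (1.34). HNRNPL, which binds CA repeats, went from 166 and 147 CPM to 68.3 and 73.3 CPM (-1.12 ± 0.16, edgeR adjusted p = 0.000176), opposite to its paralogue HNRNPLL (1.43). HNRNPAB went from 73.0 and 61.8 CPM to 34.7 and 29.5 CPM (-1.05 ± 0.18, edgeR adjusted p = 0.000487). SRSF1 went from 107 and 91.2 CPM to 49.8 and 51.4 CPM (-0.95 ± 0.16, edgeR adjusted p = 0.000387). HNRNPUL1 went from 171 and 152 CPM to 81.2 and 92.3 CPM (-0.88 ± 0.15, edgeR adjusted p = 0.000557). In all 5 the treated libraries were below both controls.

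GC content ran along these changes. Across the 35 members Pearson's r of the log2 fold change with GC content was -0.70, given as a description over genes measured in the same 4 libraries; over 13675 genes Spearman's rho was -0.817. The paralogue pairs that split also split by GC content: the longest transcript is 61.7% GC for PTBP1 and 34.7% for PTBP2, and 49.8% for HNRNPL and 38.4% for HNRNPLL. SRSF1, at 38.7% GC, fell among AT-rich members that mostly rose. How far GC content accounts for any single change was not tested beyond the correction.

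**Figure D4:**
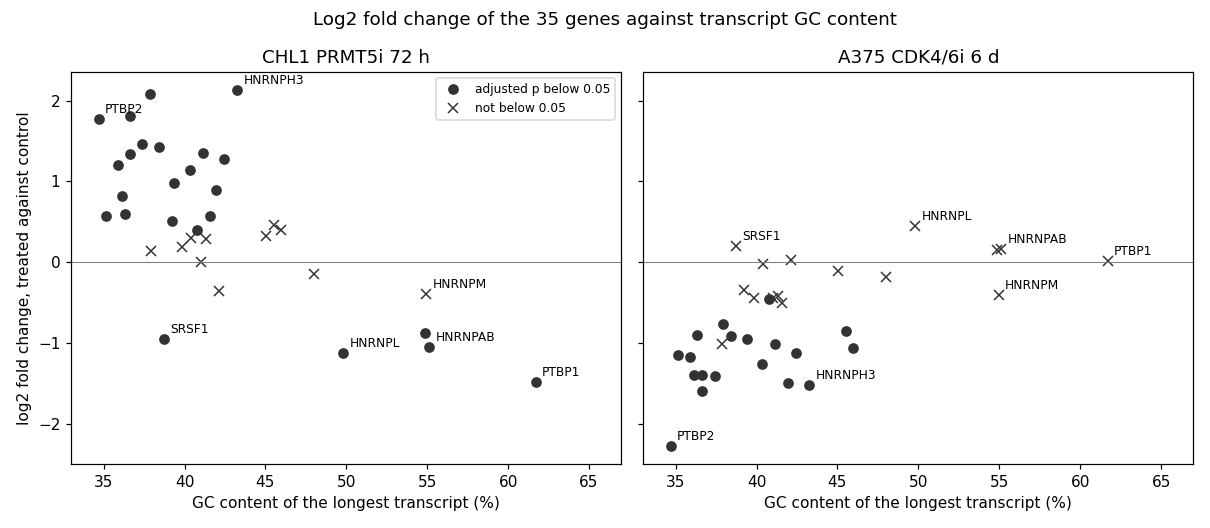
Log2 fold change (vertical axis) against the GC content of the longest transcript in percent (horizontal axis) for the 35 genes, in CHL1 under PRMT5i at 72 hours (left) and A375 under CDK4/6i at 6 days (right). Filled points have an edgeR adjusted p below 0.05; values fall with GC content on the left (Pearson's r = -0.70), where SRSF1 lies apart, and rise with it on the right (0.60).

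With the trend removed, 7 members were higher and 11 lower in CHL1 under PRMT5i, where 17.1% and 16.5% of 13675 genes were, and the median was -0.0019. The 7 that rose in both fits were HNRNPH3, HNRNPH2, TRA2A, SRSF11, PTBP2, HNRNPLL and TRA2B, with corrected log2 fold changes of 1.69, 0.73, 0.65, 0.65, 0.46, 0.44 and 0.35. HNRNPL and SRSF1 fell in both, with corrected values of -0.80 and -1.91. The A375 controls of 6 days carry a GC trend too. As counted, they differed from the 72-hour A375 controls in the same direction for each of these genes. HNRNPH3 was at 48.8 and 32.8 CPM, against 17.8 and 14.7 CPM at 72 hours. SRSF1 was at 48.8 and 77.9 CPM, against 129 and 153 CPM. Time and library set also differ between these controls. How far the corrected values are free of a difference between libraries was not tested. In HNRNPC, HNRNPH1, HNRNPR and SRSF4 the call changed sign, from 0.51, 0.60, 0.57 and 0.40 as counted to -0.40, -0.58, -0.70 and -0.35. HNRNPA0, HNRNPU, SRSF6, SRSF7 and SRSF9 were lower in the corrected fit alone, at -0.71, -0.89, -0.66, -0.39 and -0.94. So 5 of 8 classical SR proteins were lower after correction and 1 (SRSF11) higher, against 1 lower and 3 higher as counted. PTBP1 was at -0.20 after correction and did not pass.

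**Figure D5:**
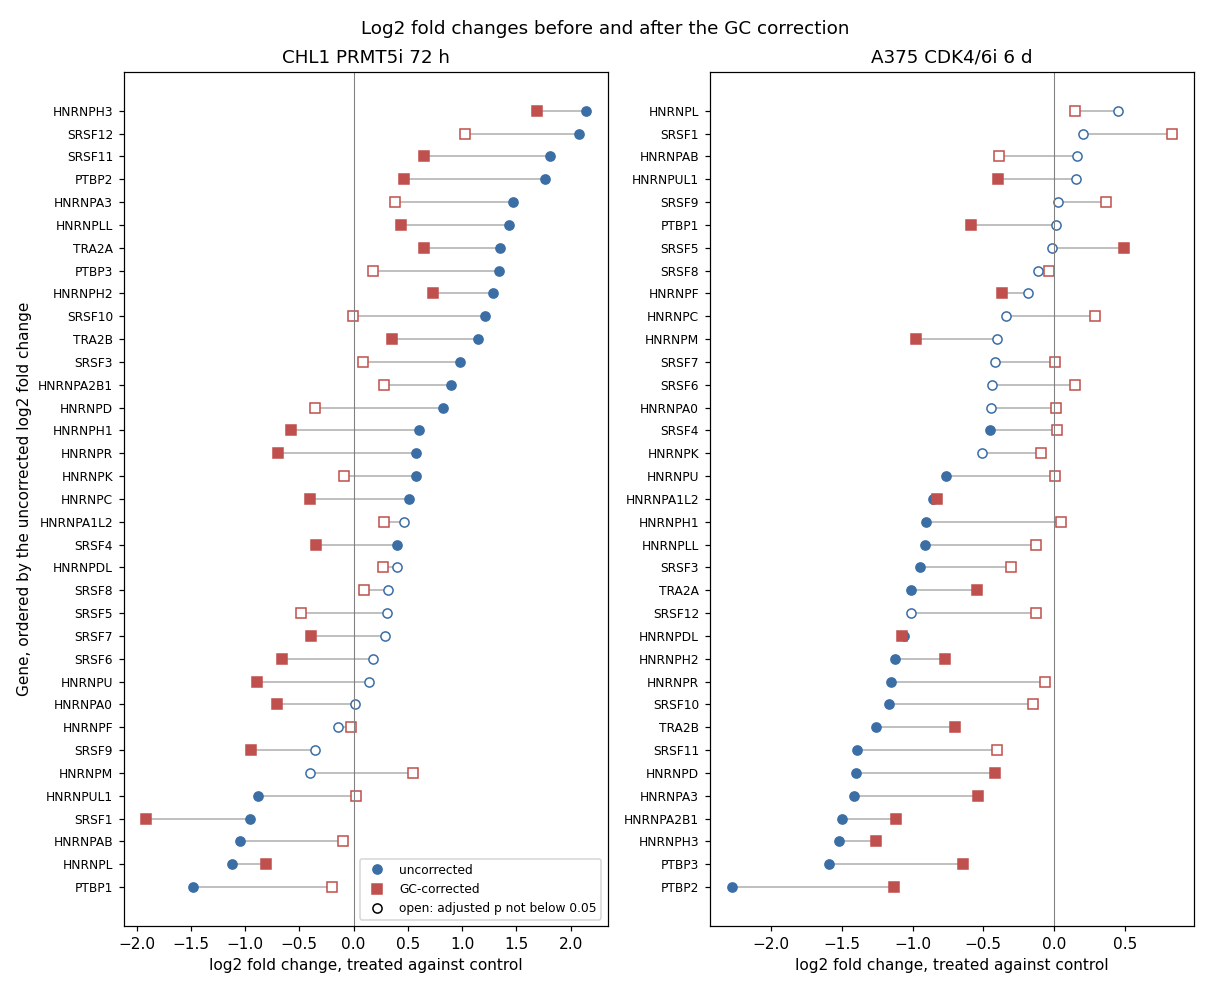
Log2 fold changes of the 35 genes as counted (blue circles) and after GC correction (red squares), joined by a grey line, in CHL1 under PRMT5i at 72 hours (left) and A375 under CDK4/6i at 6 days (right). Filled symbols have an edgeR adjusted p below 0.05; HNRNPH3 keeps most of its rise on the left, HNRNPC, HNRNPH1, HNRNPR and SRSF4 change sign, and PTBP2 keeps the second largest corrected fall on the right, after HNRNPH3.

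In A375 PRMT5i changed no member past the test, where 2.61% of all genes were called (edgeR, with 2 members at an unadjusted p below 0.05, DESeq2 0, limma voom 0). A fit with a replicate block, though no label pairs the replicate numbers, called 7 members, where 29.5% of all genes were called. Log2 fold changes ran from -0.45 (PTBP2) to 0.64 (SRSF8), with a median of -0.04 and standard errors of 0.16 to 0.27 apart from SRSF12 (0.82). For 26 members the libraries of the groups overlapped, while for 2 both treated libraries lay above both controls and for 7 below. The share of all genes with such overlap is not given, so these counts say nothing particular to the members. SRSF8, an SR protein gene that arose by retrotransposition, was at 30.2 and 30.6 CPM in the controls and 41.5 and 54.5 CPM under PRMT5i (edgeR adjusted p = 0.106), and it was the 1 member called after GC correction (0.67, edgeR adjusted p = 0.0286), where 4.29% of genes were called higher. HNRNPH3, which rose most in CHL1, was at 17.8 and 14.7 CPM in the A375 controls and at 19.96 and 17.7 CPM under PRMT5i (0.20 ± 0.22, edgeR adjusted p = 0.716).

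The difference between the lines in the PRMT5i response passed for 19 members, 14 with a more positive response in CHL1 and 5 with a more negative one, where 40.9% of all genes passed, 18.8% and 22.1% in these directions. Among the expressed genes with a GC value, fitted without correction, 58.5% passed, beside 21 of the 35 members. PTBP2 differed most (2.18 ± 0.31, edgeR adjusted p = 0.00017). After GC correction 11 passed, where 26.0% of 13675 genes did. Those with the same sign in both fits were HNRNPH3, PTBP2 and TRA2A, with corrected differences of 1.40, 0.69 and 0.66, and HNRNPL and SRSF1, at -0.70 and -2.09.

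The drugs were also compared directly at 72 hours, without the controls they share. In A375 5 members were higher under PRMT5i than under CDK4/6i and none lower, where 5.45% of all genes were called and 2.37% were called higher: PTBP2 (log2 difference 0.90 ± 0.21, edgeR adjusted p = 0.0249), HNRNPD (0.89 ± 0.18, edgeR adjusted p = 0.0121), HNRNPH3 (0.89), HNRNPA3 (0.73) and SRSF4 (0.61). HNRNPD was at 138 and 170 CPM under PRMT5i and at 84.9 and 86.6 CPM under CDK4/6i. Their calls did not hold in the fits that left out 1 library, which keep 1 library in a group and called far fewer genes over the whole table. In those fits the log2 difference was 0.76 to 1.02 for PTBP2, 0.74 to 1.02 for HNRNPD and 0.78 to 0.99 for HNRNPH3. It was 0.60 to 0.85 for HNRNPA3 and 0.52 to 0.69 for SRSF4. After GC correction the count was 11, all higher under PRMT5i, where 9.04% of 13675 genes were. In CHL1 22 members were higher and 5 lower under PRMT5i than under CDK4/6i, where 57.8% of all genes were called, 28.4% higher and 29.4% lower. After GC correction 12 were higher and 9 lower, where 24.4% and 23.4% of 13675 genes were. HNRNPH3 led in both fits, at 2.42 and 1.87, followed as counted by PTBP2 at 2.35 (1.00 corrected).

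Likeness was read for the members with the largest rise and the largest fall. Across the means of the 9 groups, which share batches and GC trends, the gene most like HNRNPH3 among the members was TRA2B (Pearson's r = 0.982), then SRSF10 (0.975) and SRSF3 (0.972). For PTBP2 it was SRSF10 (0.994), then HNRNPA2B1 (0.987) and TRA2B (0.985).

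Genes that act on these proteins were read from lists chosen by function. Among 10 kinases and import receptors of SR proteins, SRPK2, which phosphorylates their arginine- and serine-rich domain in the cytoplasm, was lower under CDK4/6i in all 4 comparisons: -0.69 and -0.71 in CHL1 at 72 hours and 6 days, and -0.59 and -0.82 in A375. At 6 days in A375 its value was -0.24 after GC correction and did not pass. SRPK1 (-0.56) and TNPO3 (-0.48), the import receptor of SR proteins, were lower and CLK1, a nuclear kinase of SR proteins, higher (0.87) in CHL1 at 6 days. Under PRMT5i in CHL1 6 of the 10 were higher and 3 lower as counted, where 26.4% and 27.6% of all genes were. Of the expressed genes with a GC value 69.7% were called there without correction. After correction 2 were higher and 2 lower, where 17.1% and 16.5% of 13675 genes were. CLK1 was higher (1.61 as counted, 0.38 corrected) and CLK3 lower (-1.23 and -1.28) in both fits. CLK1 changed sign in A375 at 6 days, from -0.68 as counted to 0.38 after correction. The list's median was 0.51 under PRMT5i in CHL1 and 0.04 in A375, against 0.0 over all genes in both.

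Among other proteins called hnRNP, PCBP3 (-1.05), RALY (-0.73) and SYNCRIP (-0.67) were lower in CHL1 at 6 days of CDK4/6i. In A375 at 72 hours RBMX was lower (-0.77) and PCBP4, a p53-induced gene, higher (0.85), and PCBP4 was higher at 6 days as well (1.22). PCBP1, an intronless gene, was higher under PRMT5i in CHL1 (1.93) and lower in A375 at 6 days (-2.37), and its values were larger after correction (2.82 and -3.03). Of 6 arginine methyltransferases and partners, 1 was higher and 3 lower under PRMT5i in CHL1 as counted, with a median of -0.66. Over all genes 26.4% were higher and 27.6% lower there. PRMT5 itself, the target of GSK3326595, was lower under PRMT5i in CHL1 as counted (-0.96, edgeR adjusted p = 0.0016) and did not pass after correction (-0.39), while PRMT1 was lower in both fits (-1.71 and -0.70). WDR77 (MEP50), the partner of PRMT5, was higher in A375 at 6 days (0.93, and 0.74 corrected).

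Of 9 SR-related coactivators measured, 2 were lower in CHL1 at 6 days of CDK4/6i (U2AF1, -0.68, and LUC7L, -0.57), where 7.8% of all genes were. In A375 at 6 days 3 were lower, where 21.3% of all genes were, and of these SRRM1 stayed lower after correction (-0.71 and -0.79). Under PRMT5i in CHL1 3 of the 9 were higher and 3 lower as counted, where 26.4% and 27.6% of all genes were. After correction 2 were higher, where 17.1% of 13675 genes were. As counted, LUC7L3 (1.30), SRRM1 (1.05) and PNN (1.03) were the higher and U2AF2 (-1.19), SRRM2 (-0.93) and LUC7L (-0.48) the lower. Of these 6, SRRM1, a scaffold between SR proteins and the spliceosome, passed after correction (1.02). Of 9 nonsense-mediated decay factors measured, SMG6, the endonuclease, was lower in CHL1 at 6 days (-0.72). Under PRMT5i in CHL1, where 54.0% of all genes were called, 2 were higher (UPF3B, 1.19, and UPF2, 0.71) and 3 lower (SMG9, -1.14, UPF1, -1.10, and SMG5, -1.03) as counted. Of these 5, UPF3B passed after correction (0.50). In A375 at 6 days, where 43.1% of all genes were called, 2 were higher and 2 lower as counted, UPF3B among the lower (-0.89, and -0.43 corrected).

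Where the reads lie limits some members. In GRCh37 annotation 8 of the 35 share exonic bases with another gene of the table, mostly on the opposite strand: HNRNPA2B1 with CBX3 and NFE2L3, HNRNPA3 with NFE2L2, HNRNPH3 with RUFY2, HNRNPU with COX20, HNRNPUL1 with TGFB1, HNRNPAB with PHYKPL and SRSF9 with GATC, and HNRNPH2 on the same strand with its readthrough RPL36A-HNRNPH2. The study's methods give default settings for HTSeq, which count by strand, but the labels do not say that the library kit kept strand, so reads of a gene and its antisense partner may not have been told apart. The members whose changes lead the results without such overlap are PTBP2 (chromosome 1, 97187221 to 97289294, plus strand), HNRNPD (chromosome 4, 83273651 to 83295656, minus strand, which overlaps a divergent transcript with no entry in the table), TRA2B (chromosome 3, 185632346 to 185655891, minus strand) and SRSF1 (chromosome 17, 56078280 to 56084707, minus strand, which overlaps 2 annotated genes with no entry in the table).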

How the data were processed

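Poly-A RNA libraries were prepared with a TruSeq kit. The authors aligned reads to GRCh37 and deposited 1 table of counts per gene, which holds whole-number counts that differ in total between libraries although it is named as normalised. The submitters' processing notes name FastQC 0.11.6, HISAT2 2.0.4, Picard 2.17.3, SAMtools 1.18, HTSeq 0.11.2 and edgeR. Counts were tested with edgeR 4.0.16 in R 4.3.3 (quasi-likelihood test, TMM scaling, all libraries of a line in 1 fit, all 18 libraries for differences between lines), with Benjamini-Hochberg adjustment over 20705 genes and a threshold of 0.05. For the GC correction, a loess curve (span 0.4) of each library on transcript GC content entered as an offset, on the 13675 genes that have a GC value and average 1 CPM or more. limma 3.58.1 (voom) and DESeq2 1.42.0 were alternatives, as were other scalings, filters, thresholds, sets of libraries, a replicate block and leaving out each library. Scripts were tested on simulated data. Members with the 5 largest called rises and falls per comparison, with treated libraries beyond both controls, were given by library. The members and lists were chosen with earlier results of these data known. Replicate numbers did not pair the samples by any label. 1 gene of these lists is not reported here.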

Additional observations from a re-analysis of the deposited data

Results flagged for a closer look

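The response to PRMT5i differed between CHL1 and A375 past the test of the difference itself (an interaction contrast in edgeR over all 18 libraries) for 19 members, and each was singled out for that. Over all genes 40.9% passed, and 58.5% of the expressed genes with a GC value when fitted without correction. As CHL1 minus A375 on the log2 scale, the difference was 2.18 for PTBP2, 1.90 for HNRNPH3, 1.65 for SRSF11, 1.58 for HNRNPLL, 1.498 for SRSF10, 1.42 for PTBP3, 1.42 for TRA2A, 1.26 for TRA2B, 1.21 for HNRNPA3, 0.99 for SRSF3, 0.97 for HNRNPA2B1, 0.87 for HNRNPR, 0.76 for HNRNPD and 0.72 for HNRNPK. It was -0.89 for HNRNPUL1, -1.02 for SRSF1, -1.09 for HNRNPAB, -1.10 for HNRNPL and -1.41 for PTBP1. After GC correction 6 of the 19 changed sign: HNRNPR was called the other way (-0.58), and HNRNPD (-0.59), HNRNPA3 (-0.0099), HNRNPK (-0.0024), HNRNPAB (0.0065) and HNRNPUL1 (0.14) did not pass. The CHL1 PRMT5i libraries carry the GC trend and the A375 ones do not, and cell line, medium and library set differ together.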

How the results depend on the processing

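With 2 libraries per group, counts of called members moved with the settings, as did the share of all genes called, and the cause was not tested. For CHL1 under CDK4/6i at 72 hours (0 called) the count was 1 in a fit of all 18 libraries, 1 with DESeq2, 2 after GC correction and 11 with only the groups compared. Of the genes tested, these fits called 4.6%, 8.07%, 16.1% and 20.3%. At 6 days (6 called) the count was 1 at an adjusted p below 0.01, 11 with DESeq2 and 17 after GC correction, where 6.45%, 18.4% and 32.4% of the genes tested were called. For A375 under CDK4/6i at 72 hours (9 called) it was 4 at the stricter threshold and 24 with only the groups compared, where 5.92% and 33.5% of all genes were called. For A375 under PRMT5i (0 called) it was 1 after GC correction and 1 with only the groups compared, where 10.9% and 8.99% of the genes tested were called. For PRMT5i minus CDK4/6i in A375 (5 called) it was 0 at the stricter threshold, 1 with limma voom, 3 with median-of-ratios scaling, 11 after GC correction and 23 with only the groups compared. Of the genes tested, these fits called 1.47%, 2.85%, 5.49%, 18.6% and 21.8%. The A375 response at 6 days minus 72 hours (0 called) gave 5 with DESeq2, where 5.53% of the genes tested were called. The PRMT5i difference between lines (19 called) gave 11 after GC correction, where 26.0% were, and the controls (21 called) 12 at the stricter threshold, where 47.1% were.

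The replicate numbers share no label that pairs the samples. Same-numbered libraries correlated in their deviations from group means at 0.22, 0.25 and 0.48 between the A375 groups of 72 hours, and at -0.34 to 0.44 between the CHL1 groups. With the replicate block 1 member was called in CHL1 under CDK4/6i at 72 hours, 26 in A375 under CDK4/6i, 7 in A375 under PRMT5i and 25 in the direct comparison of the drugs in A375; over all genes the block fit called 3.84%, 42.3%, 29.5% and 34.6%. With the block and the GC correction together the counts were 6, 26, 7 and 26, and 20 in CHL1 under CDK4/6i at 6 days, where 17.5%, 53.3%, 39.2%, 45.4% and 33.8% of the 13675 genes with a GC value were called.

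Leaving out 1 library at a time gave 0 to 11 members in CHL1 under CDK4/6i at 6 days, 19 to 26 in CHL1 under PRMT5i, 1 to 2 in A375 under CDK4/6i at 72 hours and 15 to 29 at 6 days, 24 to 27 for the drugs in CHL1, 0 to 0 for the drugs in A375, 0 to 17 for the A375 response over time, 14 to 20 for the PRMT5i difference between lines and 12 to 18 for the controls.

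GC correction changed the sign of some called members. In CHL1 under PRMT5i the corrected values, with those of block and correction in brackets, were -0.40 (-0.40) for HNRNPC, -0.36 (-0.38) for HNRNPD, -0.58 (-0.58) for HNRNPH1, -0.0848 (-0.0866) for HNRNPK, -0.70 (-0.70) for HNRNPR, 0.0217 (0.0214) for HNRNPUL1, -0.0019 (-0.0051) for SRSF10 and -0.35 (-0.35) for SRSF4. In A375 at 6 days they were 0.0484 for HNRNPH1, 0.0075 for HNRNPU and 0.0218 for SRSF4. In the PRMT5i difference between lines they were -0.0099 for HNRNPA3, 0.0065 for HNRNPAB, -0.59 for HNRNPD, -0.0024 for HNRNPK, -0.58 for HNRNPR and 0.14 for HNRNPUL1. Chosen after seeing the data, the fits of the GC genes without correction and of the 12 libraries of 72 hours alone moved no count by over 1.5 times.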
